A study of Mus musculus with 12 samples.

Results

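Expression of the genes that make, sense and move cholesterol was examined in the cervix of pregnant mice of the outbred CD1 stock at gestation day 15, which the labels do not fix as the day of injection or of collection. The set held 30 genes, found on the array by gene symbol. It comprised the enzymes of the mevalonate pathway and of sterol synthesis, the proteins that sense sterols, and the proteins that carry cholesterol inside and out of cells. A gene was represented by its brightest probe set on the array. Probe sets with a single gene symbol were found for 28 of the 30 members, out of 18194 genes in all. Acat2 and Nr1h2 were not analysed here. Of the 28, 23 had a log2 intensity above 4 on at least 6 of the 12 arrays, as did 8795 genes in all, and only these were tested.

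Both groups were pregnant dams given an injection under the skin. The MPA group received 1 mg of medroxyprogesterone acetate, a synthetic progestin, per dam, and the vehicle group received an equal volume of ethanol. Treatment lasted 48 h, and total cervical RNA was amplified and hybridised to Affymetrix Mouse430_2 arrays, 6 per group. Whether the 6 arrays of a group stand for 6 different dams is not given, and the p-values below cover the spread between samples only, part of which may be technical. In whole tissue, fewer cells of a type and less RNA per cell cannot be told apart.

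Cells build cholesterol from acetyl-CoA through mevalonate, farnesyl diphosphate, squalene and lanosterol. When sterols in the endoplasmic reticulum run low, the escort protein Scap carries the precursors of the SREBP transcription factors to the Golgi, where they are cut and released to switch on nearly all enzymes of the pathway, while Insig proteins hold Scap back when sterols are ample. Surplus cholesterol leaves cells through the transporters Abca1 and Abcg1, whose genes are activated by the oxysterol-binding liver X receptors. In stratified epithelium, cholesterol made in the cells is a major lipid of the barrier between the outer layers.

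The sequence before the gene start is shown for 4 members, because they are SREBP targets with different relations to Hmgcs1 over the 12 arrays: Idi1 and Msmo1 were among the pairs that passed, which depended on 1 array, and Insig1 was not. Each is the 250 bases before the annotated start, 5′ to 3′ on the strand of the gene, from RefSeq on build GRCm38.p6. Hmgcs1 lies at chr13:119690101-119690350 on the plus strand, Idi1 at chr13:8885356-8885605 on the plus strand, Msmo1 at chr8:64733579-64733828 on the minus strand and Insig1 at chr5:28071162-28071411 on the plus strand. Capitals mark matches on either strand to the sterol regulatory element letters TCACNCCAC, to CCAAT (which reads ATTGG from the other strand) and to the E-box CACGTG. No matches overlapped in these 4 sequences.
Hmgcs1: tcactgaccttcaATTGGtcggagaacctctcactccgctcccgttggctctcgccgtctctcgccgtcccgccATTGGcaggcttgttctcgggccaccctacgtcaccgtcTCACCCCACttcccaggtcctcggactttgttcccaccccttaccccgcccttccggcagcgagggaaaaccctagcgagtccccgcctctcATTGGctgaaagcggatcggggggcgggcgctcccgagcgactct
Idi1: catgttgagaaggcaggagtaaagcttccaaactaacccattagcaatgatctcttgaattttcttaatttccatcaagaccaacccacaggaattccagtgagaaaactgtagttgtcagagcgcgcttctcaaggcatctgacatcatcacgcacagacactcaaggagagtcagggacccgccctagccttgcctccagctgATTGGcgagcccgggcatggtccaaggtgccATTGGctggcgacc
Msmo1: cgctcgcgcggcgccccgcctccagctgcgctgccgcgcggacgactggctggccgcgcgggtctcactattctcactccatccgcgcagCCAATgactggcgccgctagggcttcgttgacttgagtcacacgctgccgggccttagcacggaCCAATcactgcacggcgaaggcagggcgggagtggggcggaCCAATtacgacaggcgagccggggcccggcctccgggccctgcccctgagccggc
Insig1: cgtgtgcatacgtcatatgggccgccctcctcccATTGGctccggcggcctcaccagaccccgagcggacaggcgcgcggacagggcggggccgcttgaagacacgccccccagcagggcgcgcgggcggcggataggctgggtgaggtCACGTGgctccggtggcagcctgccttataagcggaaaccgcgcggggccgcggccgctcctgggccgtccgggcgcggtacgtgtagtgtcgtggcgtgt

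TCACNCCAC was present in 1 of the 33 promoter entries of 24 members, starting 137 bases before the start of Hmgcs1, and in 1.05% of all 32851 promoters of the same length. CCAAT was present in 14 of 18 promoter entries of the synthesis enzymes, which cover 14 of 15 genes, and in 33.8% of all promoters. CACGTG was present in 6 of the 33 member entries, among them Insig1 at 101 bases before its start, and in 6.02% of all promoters. A match is a run of letters and was not tested as a binding site.

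The level of the synthesis enzymes was lower in MPA for 13 of the 14 tested, with a median log2 difference (MPA minus vehicle) of -0.22. Over all 8795 genes the mean was lower in MPA for 43.7%, and the median difference was 0.02. None of the 23 members passed the threshold in limma with Benjamini-Hochberg adjustment over all genes, and 1 had an unadjusted p under 0.05, where 5.00% of all genes did. Calls over all genes amounted to 0.0114% (1 gene, higher in MPA, and no member of the set). The groups did not overlap for 0 of the 23 members, against 0.341% of all genes. A single array, MPA 5, held the lowest value of 14 of the 14 synthesis enzymes. Without it the median difference of the enzymes was -0.06, with 11 of 14 lower.

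**Figure D1:**
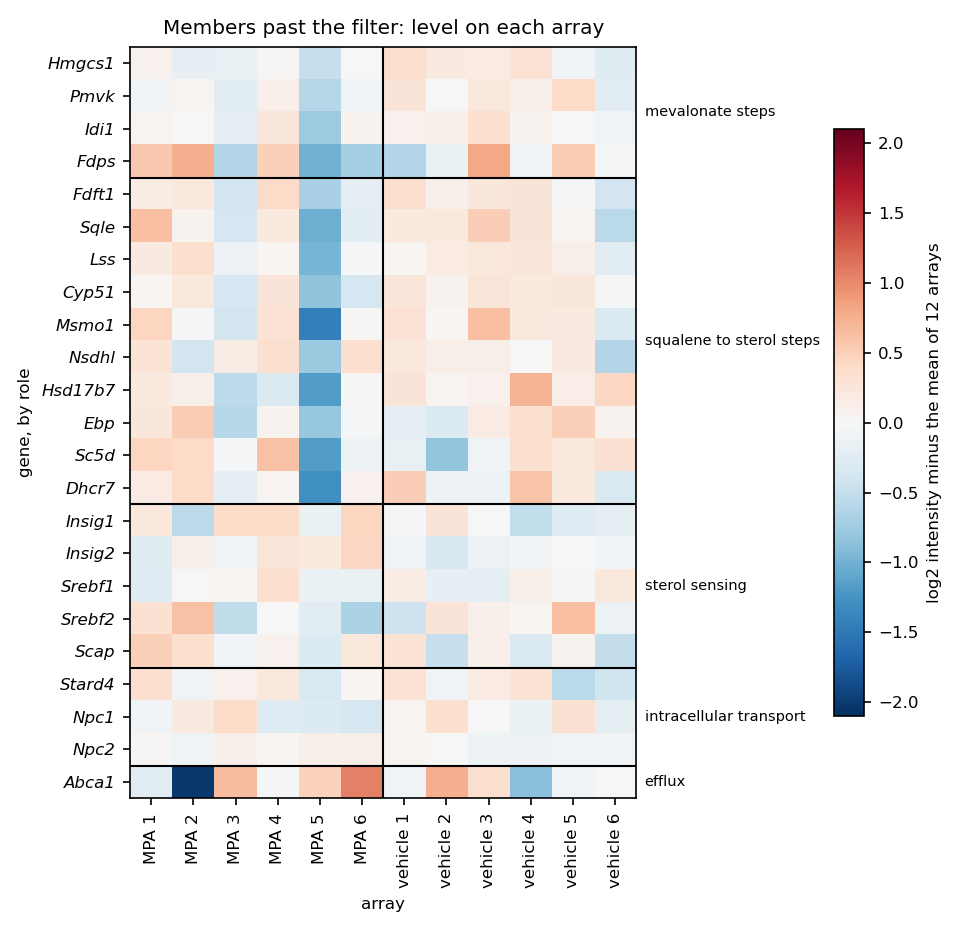
Log2 intensity of the 23 tested members (rows, by role) on each of the 12 arrays (columns), minus the mean of the gene over the arrays; blue is lower and red is higher. The column of MPA 5 is the lowest for all 14 synthesis enzymes and for 0 of the 9 other members.

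In the mevalonate steps, all 4 tested genes had a lower mean in MPA, with a median difference of -0.22. Hmgcs1, which condenses acetyl-CoA units into HMG-CoA at the entry of the pathway, had a log2 intensity from 11.10 to 11.68 in MPA (median 11.50) and from 11.33 to 11.96 in vehicle (median 11.76). The lowest MPA array lay below the vehicle range and the other 5 within it. Its log2 difference was -0.24 (SE 0.13, 95% interval -0.52 to 0.03, limma adjusted p = 1.00). Pmvk, which adds a further phosphate to mevalonate, ran from 6.78 to 7.49 in MPA (median 7.31) and from 7.16 to 7.80 in vehicle (median 7.55). Here 2 MPA arrays were below the vehicle range, and the difference was -0.27 (SE 0.14, 95% interval -0.57 to 0.03, limma adjusted p = 1.00).

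Idi1, the isomerase that makes the active isoprene unit, had a difference of -0.19 (SE 0.15). Fdps, which joins these units into farnesyl diphosphate, had -0.16 (SE 0.35), the widest error of the synthesis enzymes, and its values spread from 4.24 to 6.01 within MPA alone. Mvk, the kinase of mevalonate, was above a log2 intensity of 4 on 2 of 6 MPA arrays and 0 of 6 vehicle arrays. Mvd, which forms isopentenyl diphosphate, was above it on 0 of the 12 arrays. Both were left untested.

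From squalene to cholesterol, 9 of 10 tested genes had a lower mean in MPA, with a median difference of -0.22. Hsd17b7, which reduces the 3-keto group when methyl groups are removed from the sterol ring, had the smallest p of the 23 members. It ran from 6.23 to 7.61 in MPA (median 7.26) and from 7.45 to 8.11 in vehicle (median 7.60). Of the MPA arrays, 4 of 6 lay below every vehicle array and 2 lay inside the vehicle range. The 4 were MPA 3 to MPA 6, the arrays washed on fluidics station 4, which held no vehicle array. The difference was -0.56 (SE 0.22, 95% interval -1.04 to -0.09), a 32.3% lower geometric mean. The limma adjusted p over all genes was 0.973, and 0.0242 before adjustment. Without MPA 5 it was -0.38 (SE 0.16), and between the 2 MPA and 2 vehicle arrays of fluidics station 2 it was -0.13 (SE 0.17). A further probe set of Hsd17b7 above the filter had -0.61, and the mean of all 4 probe sets, of which 2 were never above a log2 intensity of 4, had -0.29 (SE 0.14). With that mean, and without MPA 3 or vehicle 4, 0 synthesis enzymes had an unadjusted p under 0.05 in limma.

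Cyp51, the lanosterol demethylase, ran from 8.40 to 9.53 in MPA (median 9.10) and from 9.22 to 9.51 in vehicle (median 9.48). The vehicle arrays were close together (SD 0.12, n = 6), while MPA was more spread (SD 0.43, n = 6), with 3 arrays below the vehicle range and 1 above it. All of these were arrays of station 4. The difference was -0.34 (SE 0.17, 95% interval -0.71 to 0.04, limma adjusted p = 1.00). Sqle, the squalene epoxidase and a rate-controlling step, ran from 5.91 to 7.56 in MPA (median 6.85) and from 6.37 to 7.45 in vehicle (median 7.14). Its groups overlapped nearly throughout, with 1 MPA array below and 1 above the vehicle range, and the difference was -0.24 (SE 0.25, 95% interval -0.79 to 0.31).

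Msmo1, which oxidises the methyl groups at carbon 4 of the sterol ring, had a difference of -0.36 (SE 0.28). Dhcr7, the reductase of the last step, had -0.26 (SE 0.27), Ebp, the sterol isomerase, -0.20 (SE 0.22), Lss, which closes squalene epoxide into lanosterol, -0.19 (SE 0.19), and Fdft1, which makes squalene, -0.17 (SE 0.19). Sc5d, the lathosterol desaturase, was the exception in sign with 0.06 (SE 0.30), and Nsdhl, which works with Msmo1 and Hsd17b7, stood at -0.01 (SE 0.21). Adjusted p was 1.00 in limma for all 7. Tm7sf2, a sterol reductase, was above a log2 intensity of 4 on 1 MPA and 3 vehicle arrays and was left untested.

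**Figure D2:**
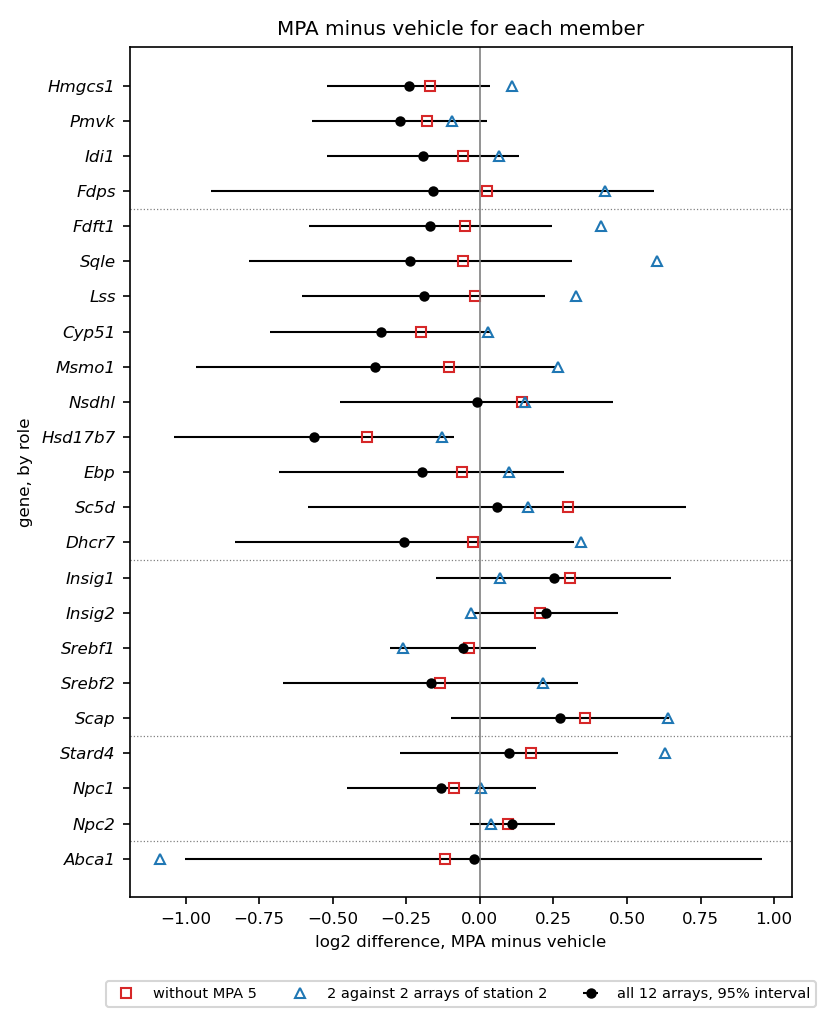
Log2 difference of each tested member, MPA minus vehicle (x axis), by gene and role (y axis). Black points and bars are the estimate and 95% interval over 12 arrays, red squares leave out MPA 5, and blue triangles are the 2 against 2 arrays of station 2; the interval of Hsd17b7 alone lies below 0.

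The size of the synthesis difference depended on MPA 5. Relative to the vehicle median, its intensity was 32.3% for Msmo1, 38.5% for Hsd17b7, 39.6% for Dhcr7, 41.8% for Sc5d and 42.7% for Sqle, and 63.0% for Hmgcs1, the least reduced. The median over the 14 enzymes was 49.6%, and over all genes tested 97.9%. MPA 5 held the lowest value for 19.5% of all genes, the most of any array, with MPA 2 close behind at 18.7%. Among the 9 members that sense, carry or export cholesterol MPA 5 was lowest for 0, and its intensity was between 77.4% and 142% of the vehicle median. Whether the synthesis enzymes differ from the other members in this respect was not tested.

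The mean of the 14 enzymes, each centred on its average over the 12 arrays, was -0.93 in MPA 5. In the other MPA arrays it was between -0.29 in MPA 3 and 0.25 in MPA 1, and in vehicle between -0.16 and 0.26. Those 5 MPA arrays therefore covered about the same range as vehicle. Without MPA 5, Fdps had a difference of 0.03, Nsdhl 0.14 and Sc5d 0.30, and the remaining 11 enzymes were between -0.38 for Hsd17b7 and -0.02 for Lss. The arrays were washed on 3 fluidics stations, of which station 2 alone held both groups, with 2 arrays each. There the median of the enzymes turned to 0.16, with 12 of 14 higher in MPA and Sqle at 0.60 (SE 0.33). The centred means on this station were 0.25 in MPA 1, 0.18 in MPA 2, 0.19 in vehicle 5 and -0.16 in vehicle 6. Vehicle 5 lay between the MPA arrays, and vehicle 6 was the lowest vehicle array. The part of vehicle 6 in the change of sign was not tested. Station 2 does not hold MPA 5. With the station as a block the values are the same by construction, since the other stations held 1 group each.

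Epithelial markers were low in the same array. All 10 tested markers of cornified epithelium, of 20 listed, had a lower mean in MPA (median difference -0.55), as did 13 of 14 tested basal markers (-0.26). Of the luminal markers, 5 of 8 were lower (-0.12). The difference of the centred means was -0.70 for the cornified and -0.33 for the basal markers. Without MPA 5 it was -0.33 and -0.15. On MPA 5 the centred mean was -2.17 for the cornified and -1.05 for the basal markers, and in the other MPA arrays it was no lower than -0.35 and -0.29. The summed intensity of the cornified markers was 1676 in MPA 5, from 6399 to 11088 in the other MPA arrays and from 6137 to 14735 in vehicle. Of this list Sprr1b, Sprr3, Krt1, Lor and Cnfn were never above a log2 intensity of 4. The summed basal level was 15250 in MPA 5, from 26278 to 39235 in the other MPA arrays and from 25209 to 38845 in vehicle. In the same array the fibroblast sum of 37512 and the smooth muscle sum of 41276 were the highest of all 12 arrays. The highest vehicle sums were 30680 and 32750. The luminal epithelial sum of 8851 was the lowest of the 12 arrays and the macrophage sum of 4121 the highest. The part of cell composition in the synthesis values was not tested.

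**Figure D3:**
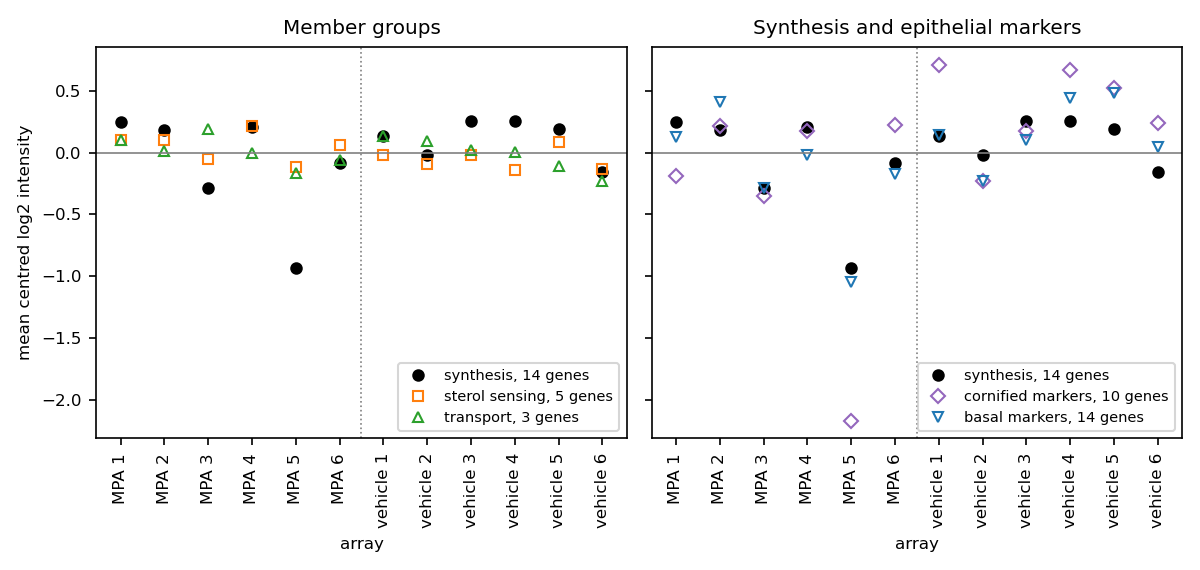
Mean log2 intensity of gene groups on each array (x axis), each gene centred on its mean over 12 arrays (y axis). Left, synthesis, sensing and transport genes; right, synthesis genes with cornified and basal epithelial markers; at MPA 5 the synthesis mean is -0.93, the basal mean -1.05 and the cornified mean -2.17, while sterol sensing is at -0.12.

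Among the genes of sterol sensing, 3 of 5 were higher in MPA and 2 lower, with a median difference of 0.22. The median was 0.0023 with the mean of all probe sets and 0.068 within station 2, and no test compared the roles. Insig1, which retains Scap in the endoplasmic reticulum and is itself an SREBP target, ran from 8.53 to 9.54 in MPA (median 9.38) and from 8.57 to 9.35 in vehicle (median 8.96). The groups overlapped, with 3 MPA arrays above the vehicle range, all of station 4, and 1 below it. The difference was 0.25 (SE 0.18, 95% interval -0.15 to 0.65, limma adjusted p = 1.00). Insig2, its relative, ran from 8.18 to 8.86 in MPA (median 8.59) and from 8.09 to 8.42 in vehicle (median 8.36). Of the MPA arrays, 4 of 6 lay above every vehicle array, and the difference was 0.22 (SE 0.11, 95% interval -0.02 to 0.47, limma adjusted p = 1.00, 0.0706 before adjustment). The other bright probe sets of Insig2 gave 0.07 and -0.11, so the sign depends on the probe set.

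Scap ran from 4.72 to 5.50 in MPA (median 5.15) and from 4.49 to 5.29 in vehicle (median 4.88), with 2 MPA arrays above the vehicle range. Its difference was 0.27 (SE 0.17, 95% interval -0.10 to 0.64), and 0.64 (SE 0.25) within station 2. Srebf2, which encodes the SREBP that drives cholesterol synthesis, ran from 5.22 to 6.50 in MPA (median 5.77) and from 5.45 to 6.51 in vehicle (median 5.97). The groups overlapped in 4 of 6 MPA arrays, with a difference of -0.17 (SE 0.23, 95% interval -0.67 to 0.34). Srebf1, whose products act mainly on fatty acid synthesis, had -0.06 (SE 0.11). The limma adjusted p was 1.00 for these 3 genes. Activation of the SREBP proteins by cutting is not measured by an array.

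Among the genes of transport within the cell, 2 of 3 were higher in MPA, with a median difference of 0.10. Npc2, which takes cholesterol from lipoproteins inside the lysosome, ran from 11.00 to 11.21 in MPA (median 11.16) and from 10.96 to 11.14 in vehicle (median 11.02). It was the steadiest member, with an SD of 0.09 over the 12 arrays, and 3 MPA arrays lay above the vehicle range. The difference was 0.11 (SE 0.07, 95% interval -0.03 to 0.26, limma adjusted p = 1.00). Npc1, the membrane protein that receives cholesterol from Npc2, ran from 5.87 to 6.60 in MPA (median 6.05) and from 6.02 to 6.57 in vehicle (median 6.24). Here 3 MPA arrays were below the vehicle range and 1 above it, with a difference of -0.13 (SE 0.15, 95% interval -0.45 to 0.19). Stard4, a soluble sterol carrier, had 0.10 (SE 0.17), and 0.63 (SE 0.20) within station 2 (limma adjusted p = 0.840). Its other probe sets gave -0.11 and 0.10, and the mean of all its probe sets 0.03, so the sign depends on the probe set.

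Of the efflux genes, Abca1 alone was tested. This transporter of cholesterol to apolipoproteins ran from 4.57 to 7.65 in MPA (median 6.81) and from 5.71 to 7.36 in vehicle (median 6.56). It was the most variable member, with an SD of 0.82 over the 12 arrays where the median gene had 0.25. The lowest value was that of MPA 2, and 1 MPA array lay above the vehicle range. The difference was -0.02 (SE 0.45, 95% interval -1.0 to 0.96, limma adjusted p = 1.00), without MPA 2 it was 0.38, and within station 2, which holds MPA 2, it was -1.09 (SE 0.67). MPA 2 also had the lowest fibroblast (-1.91) and smooth muscle (-1.78) means, and their part in the Abca1 value was not tested. Abcg1, the transporter to lipoprotein particles, was between 2.31 and 3.68 in MPA and between 2.54 and 2.87 in vehicle. Nr1h3, the liver X receptor alpha gene, was between 2.40 and 2.58 on all arrays. Both were above a log2 intensity of 4 on 0 of the 12 arrays, so no difference was tested at this signal.

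Relations between members over the 12 arrays were measured with Hmgcs1 as the anchor. Of 22 pairs, 11 passed at a Benjamini-Hochberg adjusted permutation p under 0.05 for Pearson's r, and 5 passed for Spearman's rho. The 11 were 10 of the 13 other synthesis enzymes and Stard4. The lowest r of the 11, 0.665 for Hsd17b7, stood at rank 120 among all genes tested. Most genes with an r at least as high were therefore not members. Sqle had r = 0.814 (permutation p = 0.00100, adjusted p = 0.0106) and rho = 0.783 (permutation p = 0.00356, adjusted p = 0.0289). Msmo1 had r = 0.811 (adjusted permutation p = 0.0106) with rho = 0.783 (adjusted permutation p = 0.0289). Stard4 had r = 0.672 (adjusted permutation p = 0.0350) with rho = 0.727 (adjusted permutation p = 0.0401). The other members did not pass, with r = 0.0794 for Insig1 (adjusted permutation p = 0.911), -0.412 for Insig2, 0.0411 for Srebf2, 0.160 for Npc1 and -0.0481 for Abca1. Among the synthesis enzymes Ebp (r = 0.337), Sc5d (r = 0.241) and Fdps (r = 0.216) did not pass either.

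The number of pairs that passed depended on MPA 5. The arrays farthest from the Hmgcs1 median were MPA 5 and vehicle 1, and without them r was 0.747 for Sqle, 0.692 for Msmo1, 0.575 for Stard4 and 0.393 for Dhcr7. Of the 22 pairs, 0 then passed, on 10 arrays (lowest adjusted permutation p = 0.281), and without MPA 5 alone 0 passed as well, with r = 0.679 for Sqle, 0.676 for Msmo1 and 0.628 for Stard4. With any other single array left out, 7 (without vehicle 6) to 11 pairs passed. With values centred within each treatment group 8 pairs passed, and with values centred within station 13 passed. The centred values were shuffled over all arrays, not within groups or stations, so these p-values may be too small. MPA 5 was kept in both settings. Centred within group, r was 0.899 for Stard4, 0.821 for Sqle and 0.343 for Insig1. Centred within station, r was 0.515 for Insig1 (adjusted permutation p = 0.125) and 0.633 for Scap (adjusted permutation p = 0.0449), so the low r of Insig1 depends on the centring. A station held 4 arrays, too few for an r of its own.

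**Figure D4:**
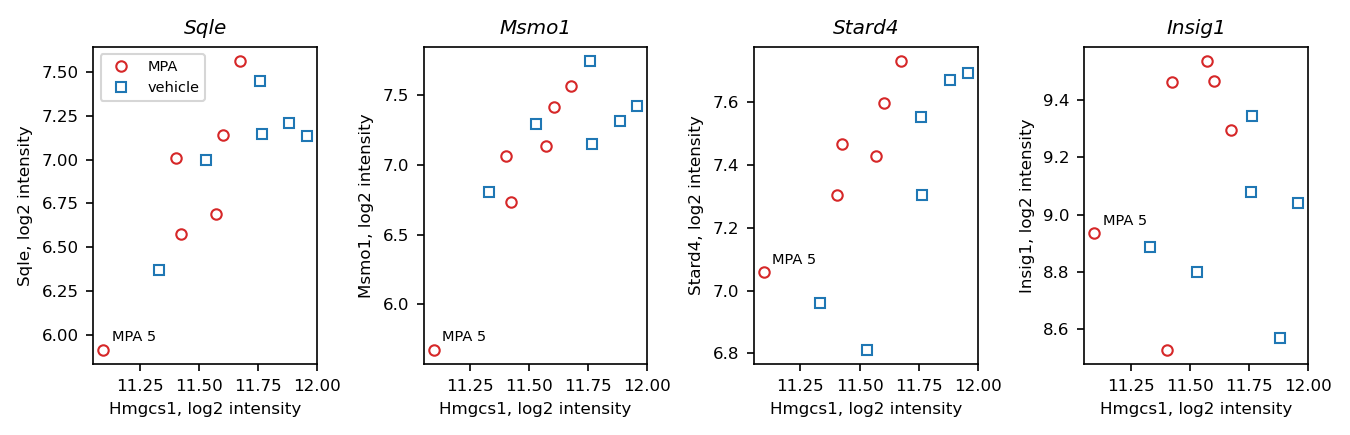
Log2 intensity of Sqle, Msmo1, Stard4 and Insig1 (y axes) against that of Hmgcs1 (x axes) on 6 MPA (red circles) and 6 vehicle arrays (blue squares). Sqle (r = 0.814), Msmo1 (r = 0.811) and Stard4 (r = 0.672) are shown with MPA 5 at the lower end of Hmgcs1, beside Insig1 (r = 0.0794, and 0.515 when centred within station).

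Over all genes tested, the 5 most like Hmgcs1 by Pearson's r over 12 arrays were Stmn1 (0.858), Ranbp2 (0.850), Adgrl2 (0.838), Txnl4a (0.824) and Krt80 (0.814). Sqle stood at rank 6, Msmo1 at rank 9 and Fdft1 at rank 11, while Stard4 stood at rank 110 and Hsd17b7 at rank 120. These r values were used to choose the genes and have no test.

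Other genes of the pathway were set beside the members. Of 18 further sterol genes tested, of 29 listed, 9 were higher and 9 lower in MPA, with a median difference of 0.01 and 0 called by limma (1 with an unadjusted p under 0.05). Lipa, the lysosomal acid lipase that frees cholesterol from its esters, ran from 5.72 to 6.99 in MPA (median 6.18) and from 5.40 to 6.13 in vehicle (median 5.77). The difference was 0.48 (SE 0.20, limma adjusted p = 0.991, 0.0369 before adjustment). Macrophage markers, of which 9 of 13 were tested and all 9 were higher in MPA, had a summed intensity from 1305 to 4121 in MPA and from 1478 to 2437 in vehicle. The highest sum was that of MPA 5. Cd68, Adgre1 and C1qa were never above a log2 intensity of 4, and the part of macrophages in the Lipa value was not tested. Scarb1, a receptor for high-density lipoprotein, had 0.17 (SE 0.09) and Gramd1b, a sterol carrier of membrane contacts, 0.20 (SE 0.17).

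Of 13 SREBP targets in fatty acid synthesis, 5 were higher and 8 lower in MPA, with a median of -0.10 and 0 called by limma (0 with an unadjusted p under 0.05). Elovl5, an elongase, had 0.12 (SE 0.10), Acss2, which makes acetyl-CoA from acetate, -0.49 (SE 0.42), and Elovl6, an elongase of palmitate, -0.29 (SE 0.27). On MPA 5 the centred mean of these 13 genes was -0.15, while the lowest array was MPA 2 with -0.83. The adipocyte markers, of which 3 of 7 were tested, were also lowest on MPA 2 with -2.42, and stood at -0.70 on MPA 5. Neither the difference between the gene lists on MPA 5 nor the part of adipocytes was tested.

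Facts of the whole series were as follows. The median intensity of an array was between 6.62 and 6.86, and the median r between arrays, across genes, was 0.963 within MPA and 0.969 within vehicle. All 11 genes fixed as a check of cervical tissue, among them the receptors Pgr and Esr1, the keratins Krt5 and Krt8 and the muscle gene Myh11, passed the filter. Of 6 markers of luteal cells of the ovary, 2 were tested, and Cyp11a1, Hsd3b1 and Cyp17a1 were never above a log2 intensity of 4. The summed intensity of the 5 with a probe set ran from 37 to 2372 in MPA and from 101 to 1206 in vehicle, so the list was not silent on every array.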

How the data were processed

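The authors deposited linear intensity values for 45101 probe sets on 12 arrays, made with GCRMA per the submitters' processing notes (version not given in the sources used here). That method removes background estimated from probe base content, then quantile-normalizes and combines the probes of a set. Values between 4.39 and 77974 show a linear scale. Log2 was taken with no pseudocount. Scan files were not analysed here, so the signal above background was judged from the table alone. The deposited instrument records gave the fluidics station.

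Probe sets were named by the platform annotation (34958 with 1 symbol, 932 with several, 9211 not listed), and the 28 measured members kept their symbol in RefSeq (GRCm38.p6). The probe set with the highest mean stood for a gene, and genes above a log2 value of 4 on at least 6 arrays were tested. The groups were compared in limma 3.58.1 (R 4.3.3) with lmFit and eBayes, with no covariates and adjusted p under 0.05 as the threshold. The test was checked on simulated data. Correlations have permutation p-values from 100000 draws, shuffled over all arrays used, also where values were centred. The number of arrays limits the precision.

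The members and lists were chosen with earlier results of these data known. Genes named with group ranges were those with an unadjusted p under 0.05, the 2 with the smallest p of each role, and Hmgcs1, Sqle, Insig1, Srebf2, Abca1, Nr1h3 and Npc1. Alternatives covered the filter, the probe set, normalization, a pseudocount, the variance model, array weights, the replicate number, the station and each array left out. Figures were drawn with matplotlib 3.10.9.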

Additional observations from a re-analysis of the deposited data

Results flagged for a closer look

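In groups of 6 arrays, 4 of 46 group values of tested members had an extreme array separated from the rest by more than Dixon's 95% limit, where chance flags about 1 in 20 groups (0.05). MPA 5 was the extreme array in 2 of them. Lss was at a log2 intensity of 7.76 in MPA 5, with the next MPA array at 8.61, and Dhcr7 was at 7.46, with the next at 8.56. The others were vehicle arrays: Nsdhl was at 4.73 in vehicle 6, with the next at 5.33, and Insig2 was at 8.09 in vehicle 2, with the next at 8.31. The remaining 12 synthesis enzymes, also lowest in MPA 5, did not pass this limit within MPA.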

How the results depend on the processing

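No member passed the threshold in any of 543 differences under the alternatives (adjusted p under 0.05 in limma), and 51 had the other sign, 28 of them in the station fits and 16 with 1 array left out. The station fits share their estimates by construction, so each change of sign there was counted in both. The count of genes past the threshold, 1 in all, was 0 with no filter, with the replicate block, within station 2 and without MPA 2 and MPA 5 (chosen after seeing the data), and 0 to 1 with each array left out. Same-numbered arrays did not deviate together over all genes (r from -0.60 to 0.05), and no MPA array correlated best with the vehicle array of its number. Whether same-numbered arrays shared a handling step cannot be settled by these r values. With the replicate block the synthesis median was -0.22.

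The station fits (station 2 alone, or station as a block) are the same comparison and share their estimates. They gave a median of 0.16 for synthesis, 0.087 for the mevalonate steps, 0.21 for the squalene to sterol steps and 0.068 for sterol sensing. There Hmgcs1 was 0.11, Idi1 0.065, Fdps 0.43, Fdft1 0.41, Sqle 0.60, Lss 0.33, Cyp51 0.027, Msmo1 0.27, Nsdhl 0.15, Ebp 0.10, Dhcr7 0.34, Insig2 -0.030, Srebf2 0.21 and Npc1 0.0043; without a change of sign, Abca1 was -1.09 and Stard4 0.63. With the mean of all probe sets, sterol sensing was 0.0023 and Abca1 0.14. Abca1 was 0.021 with a pseudocount of 16. With array weights Nsdhl was 0.18, Srebf1 0.033 and Abca1 0.11, and without MPA 2 and MPA 5 Nsdhl was 0.28 and Abca1 0.36. The causes were not tested.

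With each array left out, medians ran from -0.29 to -0.06 for synthesis, -0.29 to -0.11 for the mevalonate steps, -0.31 to -0.05 for the squalene to sterol steps, 0.16 to 0.23 for sensing and -0.01 to 0.13 for transport. Nsdhl ran from -0.13 to 0.14, Sc5d from -0.10 to 0.30, Abca1 from -0.24 to 0.38, Fdps from -0.33 to 0.025 and Stard4 from -0.0052 to 0.17. The synthesis medians nearest 0 were those without MPA 5. The 11 Hmgcs1 pairs became 0 without the 2 farthest arrays and 0 to 11 with each array left out (chosen after seeing the data), 0 without MPA 5 and 7 without vehicle 6. Synthesis enzymes with an unadjusted p under 0.05, 1 in all, numbered 0 in the station fits and with the mean of all probe sets, 3 with quantile or median scaling, and 0 to 3 with each array left out. Members below a log2 intensity of 4 gave no test.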

Other observations

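The difference between Insig1 and Hmgcs1 on the same array was examined after the values were seen and has no test. On the log2 scale, Insig1 minus Hmgcs1 ran from -2.88 to -1.96 in MPA (median -2.15) and from -3.32 to -2.42 in vehicle (median -2.70). The means differed by 0.49 over the 12 arrays, and by -0.04 between the groups within station 2. As the probe sets differ, the value of 1 array says nothing of which gene had more transcript.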
